A study of Mus musculus with 4 samples.

Results

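Aminoacyl-tRNA synthetases are the enzymes that join each amino acid to its tRNA, and 39 of the 53379 genes in the deposited table belonged to this family by symbol. The symbols were those made of 1 letter and "ars", with or without a closing 2, together with Eprs, Farsa, Farsb and the scaffold genes Aimp1 and Aimp2. They fell into 20 cytosolic synthetase genes, 17 mitochondrial synthetase genes (symbols closing in 2) and the 2 scaffolds. Aimp2 also closes in 2 but encodes a cytosolic protein, so it was counted with the scaffolds. The family was measured in RNA recovered by immunoprecipitation from lysates of the ventricular-subventricular zone (V-SVZ), the germinal layer that lines the lateral ventricles. All animals were CD1 mice of wild-type genotype, aged P7/P8 (postnatal days 7 and 8). The precipitating antibody was anti-Cpeb4 in 1 group and a control IgG in the other, with 2 libraries each, numbered as experiments 1 and 2. The labels do not say whether the experiments used separate or pooled animals, so the spread between libraries may be technical. Each p-value rests on such a spread, estimated in large part across all tested genes rather than from the gene alone.

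Cells keep separate sets of synthetases for the cytosol and for mitochondria, and both sets are encoded in the nucleus. Gars and Kars each serve both compartments from a single gene, and mitochondria charge glutamine tRNA by an indirect route, so some mitochondrial partners do not exist as genes. The enzymes belong to 2 structural classes, I and II, with unrelated catalytic folds. Several cytosolic synthetases are held in a multisynthetase complex by the scaffold proteins encoded by Aimp1, Aimp2 and Eef1e1. Cpeb4 belongs to the proteins that bind the cytoplasmic polyadenylation element, a U-rich stretch of the 3′ untranslated region, and thereby set tail length and translation.

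Many cytosolic synthetase genes are known targets of Atf4, the transcription factor of the amino acid response, and their promoters were read for the letters of its composite C/EBP-ATF element, TGATGNAA on either strand. RefSeq promoters (GRCm38.p6, 250 bases before to 50 after the start) were held for 29 of the 39 genes. The element stood in 5 of 13 cytosolic promoters (38.5%) and in 0 of 14 mitochondrial and 0 of 2 scaffold promoters, beside 4.51% of 27025 promoters. Its letters, in capitals, are shown here within 30 bases on the strand of the gene. They are shown because they set these 5 genes apart from the 14 mitochondrial genes read, in a feature that the choice of genes did not use.
Yars, chr4:129189895-129189924, plus strand: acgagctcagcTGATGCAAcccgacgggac
Gars, chr6:55037960-55037989, plus strand: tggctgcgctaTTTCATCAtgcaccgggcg
Aars, chr8:111033840-111033869, plus strand: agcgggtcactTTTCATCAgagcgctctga
Iars, chr13:49682126-49682155, plus strand: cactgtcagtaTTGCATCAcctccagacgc
Tars, chr15:11399655-11399684, minus strand: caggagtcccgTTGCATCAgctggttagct
In the windows shown, all but Yars have the letters as the reverse complement. The capitals begin 3 bases after the start in Yars, 30 before it in Gars, 9 after it in Aars, 7 after it in Iars and 15 before it in Tars. The start is that of the promoter used. For Aars and Yars it lies inside the annotated span of the gene, which begins at 111027778 and 129189734. Aars held a further match, 112 bases before the start, that is not shown. The E-box CACGTG, on either strand, stood in 4 of 13 cytosolic (30.8%), 1 of 14 mitochondrial (7.14%) and 8.09% of all promoters. The palindromic motif of Nrf1, also on either strand, stood in 3 of 13 (23.1%), 2 of 14 (14.3%) and 5.19%. Promoter letters describe the gene and not the binding of Cpeb4 to its transcript.

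The libraries held 22486721 to 35037171 reads, as recovered from the deposited values, and every synthetase and scaffold gene had at least 213 reads in every library. Levels are FPKM (fragments per kilobase of gene) with the authors' scaling of libraries, which did not follow read totals. Its divisor for the IgG library of experiment 1 was 0.946 of that for the Cpeb4 library, with 24094241 against 35037171 reads. The divisors differed by up to 0.93% from size factors recovered from the deposited mean level. The transcript of the precipitating antibody's own target, Cpeb4, had 26.7 and 38.3 FPKM in the Cpeb4 libraries and 9.04 and 9.66 FPKM in the IgG libraries (limma, log2 fold change 1.67, adjusted p = 9.59e-08). Of 15745 genes tested, 38.8% were called higher and 11.6% lower in the Cpeb4 immunoprecipitates, and the median log2 fold change of all tested genes was 0.19. Cell type markers moved with the antibody too. Of 8 markers each, 5 neuroblast, 4 neural stem cell and radial glia, 6 oligodendrocyte, 1 microglial and 1 endothelial and mural marker were called higher. In the other direction, 1 stem cell and radial glia, 3 microglial, 1 endothelial and mural, 2 ependymal and 3 of 5 tested erythrocyte and choroid plexus markers were called lower. In all 5 scalings used below, 2 neuroblast, 2 stem cell and radial glia and 0 oligodendrocyte markers were higher. The 1 microglial and the 1 endothelial and mural marker held too, where 17.5% of all tested genes were higher in all 5. Every marker called lower was lower in all 5, as was each of the 1822 tested genes called lower (11.6%). The 4 other scalings all moved fold changes down, so they tried the higher calls and not the lower ones. The summed neuroblast markers were 442 to 457 FPKM with anti-Cpeb4 and 342 to 344 FPKM with IgG, those of stem cells and radial glia 963 to 1003 and 605 to 632 FPKM, and those of oligodendrocytes 466 to 496 and 324 to 334 FPKM. The sums were 149 to 152 and 129 to 139 FPKM for microglia, 86.3 to 87.6 and 67.6 to 69.6 FPKM for endothelial and mural cells, 54.3 to 62.2 and 72.0 to 74.1 FPKM for ependyma, and 205 to 230 and 265 to 292 FPKM for erythrocytes and choroid plexus. No marker was at 0 in all libraries, and the part of these cells in the synthetase results was not tested. In immunoprecipitates of such bulk lysates, capture by the antibody, the number of cells of a type and RNA per cell cannot be told apart. No unprecipitated RNA was analysed here.

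Every one of the 39 genes was detected with both antibodies and passed the filter on low values. Cytosolic synthetase transcripts were the more abundant set per length. Their median level was 24.3 and 22.8 FPKM in the Cpeb4 libraries and 23.0 and 22.4 FPKM in the IgG libraries. The mitochondrial median was 9.00 and 8.14 FPKM with anti-Cpeb4 and 6.57 and 6.49 FPKM with IgG. By mean level in the IgG libraries the cytosolic set ran from 6.29 FPKM for Tars, the threonyl enzyme, to 43.9 FPKM for Nars, the asparaginyl enzyme, and 45.8 FPKM for Gars, the glycyl enzyme. The mitochondrial set ran from 1.80 FPKM for Mars2 to 13.8 FPKM for Fars2, with Lars2 far above.

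Lars2, the mitochondrial leucyl enzyme, was listed at 1592 and 1652 FPKM with anti-Cpeb4 and at 1585 and 1754 FPKM with IgG. That level ranked 8 of all genes in the table and took 0.521% to 0.824% of the reads of a library. The antibody groups overlapped (log2 fold change -0.04, 95% confidence interval -0.46 to 0.38), and the standard error of 0.20 was the largest of the family. The annotated span of Lars2 shares 8819 bases with that of the noncoding gene Gm46137, and whether the reads came from Lars2 mRNA, this neighbour or like sequence elsewhere was not tested.

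**Figure D1:**
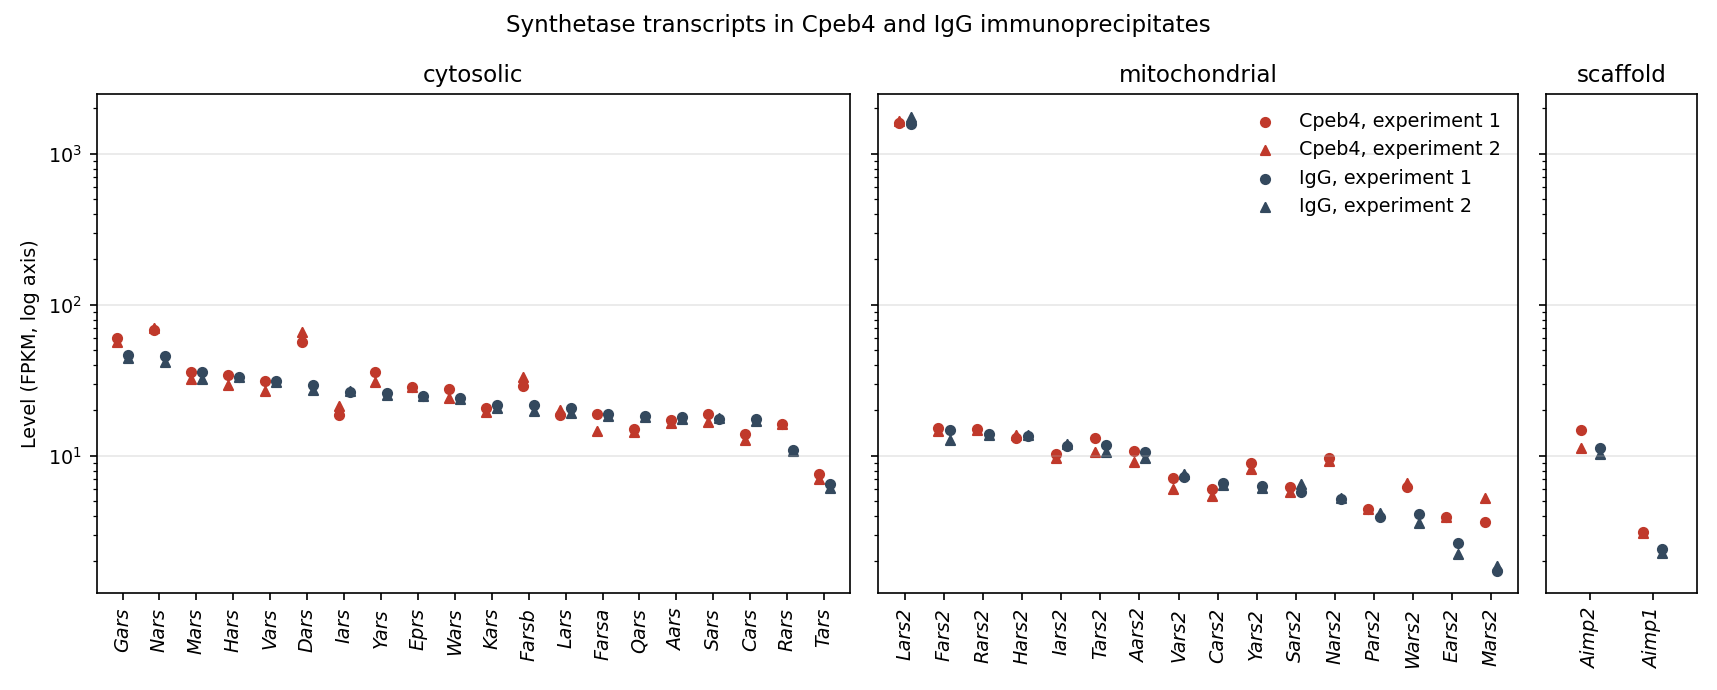
Level of 38 of the 39 synthetase and scaffold transcripts (FPKM, log axis) in the 4 libraries, with genes ordered by mean IgG level within each set; red marks are Cpeb4 and dark marks IgG libraries, circles experiment 1 and triangles experiment 2. Lars2 stands at 1585 to 1754 FPKM, and in Dars, Nars, Rars and Mars2 both red marks lie above both dark marks.

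With the authors' scaling, 12 of the 39 genes were called higher with anti-Cpeb4, 2 were called lower and 25 passed in neither direction. A call is an adjusted p under 0.05 in limma on log2(FPKM + 1), adjusted over all tested genes; on that scale a fold change understates that of a low gene. Among the cytosolic enzymes 6 of 20 (30%) were higher and 2 (10%) lower, beside 38.8% and 11.6% of all tested genes. Among the mitochondrial enzymes 6 of 17 (35.3%) were higher and 0 lower. Both shares lay near the background. Libraries of the 2 antibodies did not overlap in 14 cytosolic genes, 9 with anti-Cpeb4 above and 5 below, and in 11 mitochondrial genes, 8 above and 3 below, where 53.2% of all tested genes lay above and 22.7% below. The median log2 fold change was 0.00 for the cytosolic set and 0.10 for the mitochondrial set, under the 0.19 of all tested genes. All 14 called genes moved the same way in both experiments, as did 30 of the 39, and across the 39 genes the log2 fold changes of the experiments had r = 0.92 and rho = 0.91, as a description of genes measured in the same libraries. On the log2(FPKM + 1) scale Dars alone differed by at least 2-fold, and on scales that shrink low genes less Mars2 did too.

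Dars (ENSMUSG00000026356.15), which charges aspartate tRNA within the multisynthetase complex, had the largest change of the family on the log2(FPKM + 1) scale. With a pseudocount of 0.1 that of Mars2 was larger (1.23 against 1.10). Dars spans chromosome 1, 128363707 to 128417416 in GRCm38. Its level was 56.9 and 66.1 FPKM in the Cpeb4 libraries and 29.5 and 27.4 FPKM in the IgG libraries. Both Cpeb4 libraries lay well above both IgG libraries. The log2 fold change was 1.08 (SE 0.13, 95% confidence interval 0.81 to 1.35, 2.12-fold, limma adjusted p = 3.97e-06).

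Nars had 67.7 and 70.1 FPKM with anti-Cpeb4 and 46.2 and 41.6 FPKM with IgG, which made it the most abundant cytosolic synthetase transcript in the Cpeb4 immunoprecipitates. It was 1.56-fold higher (log2 fold change 0.64, SE 0.13, adjusted p = 0.000512), with no overlap between the groups. Farsb encodes the beta subunit of the phenylalanyl enzyme. It had 28.8 and 33.4 FPKM against 21.7 and 19.8 FPKM and was 1.47-fold higher (log2 fold change 0.56, SE 0.13, adjusted p = 0.00171). Its span shares 2332 bases with Sgpp2, itself higher by 0.62 on the log2 scale (2.63 and 2.79 against 1.25 and 1.60 FPKM). Rars, the arginyl enzyme of the complex, had 16.2 FPKM in both Cpeb4 libraries and 11.0 and 10.8 FPKM in the IgG libraries. It was 1.45-fold higher (log2 fold change 0.53, SE 0.12, adjusted p = 0.00172), and relative to their mean its Cpeb4 libraries were the closest to each other in the family. Under each of the 4 other scalings neither Farsb nor Rars was called, with log2 fold changes down to 0.06 and 0.05.

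Yars and Gars rose less. Yars, the tyrosyl enzyme, had 35.8 and 31.1 FPKM with anti-Cpeb4 and 26.3 and 25.2 FPKM with IgG (log2 fold change 0.36, SE 0.12, adjusted p = 0.0216). Gars had 60.3 and 56.7 FPKM against 46.8 and 44.7 FPKM (log2 fold change 0.35, SE 0.12, adjusted p = 0.0283). Neither pair of groups overlapped, but when libraries were scaled to their read totals the fold changes became -0.14 for Yars and -0.16 for Gars. Inherited variants of both enzymes are known from peripheral neuropathy.

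Iars and Cars were the 2 synthetases called lower. Iars (ENSMUSG00000037851.13; chromosome 13, 49682130 to 49734267), the isoleucyl enzyme of the complex, had 18.8 and 21.3 FPKM in the Cpeb4 libraries and 26.3 and 26.9 FPKM in the IgG libraries. Both Cpeb4 libraries lay below both IgG libraries, and Iars fell 1.32-fold (log2 fold change -0.40, SE 0.12, adjusted p = 0.0127). Cars (ENSMUSG00000010755.17; chromosome 7, 143557230 to 143600090), the cysteinyl enzyme, had 14.0 and 12.8 FPKM against 17.5 and 16.9 FPKM. It fell 1.27-fold, again without overlap (log2 fold change -0.34, SE 0.12, adjusted p = 0.0284).

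The other 12 cytosolic enzymes passed in neither direction. Nearest to a call was Qars, the glutaminyl enzyme of the complex, with 15.1 and 14.3 FPKM against 18.3 and 18.0 FPKM (log2 fold change -0.29, 95% confidence interval -0.55 to -0.03, adjusted p = 0.0575). Eprs, which joins the glutamyl and prolyl enzymes in 1 protein, had 28.5 and 28.8 FPKM against 25.0 and 24.9 FPKM (log2 fold change 0.19, 95% confidence interval -0.07 to 0.45). Tars was at 0.19 and Wars, the tryptophanyl enzyme, at 0.11 on the log2 scale. Mars, the methionyl enzyme, had 35.9 and 32.2 FPKM against 35.9 and 32.5 FPKM, so its groups lay on top of each other (log2 fold change -0.01). Sars, Lars, Hars, Kars, Aars and Vars, which charge serine, leucine, histidine, lysine, alanine and valine tRNAs, had fold changes from -0.10 to 0.01 on the log2 scale. Farsa, the alpha subunit of the phenylalanyl enzyme, was at -0.16. The 5 genes with the C/EBP-ATF letters printed above did not share a direction: Yars and Gars were called higher, Iars lower, and Aars and Tars were not called (log2 fold changes -0.07 and 0.19).

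Most cytosolic calls did not pass without the IgG library of experiment 2. In such a fit the spread within an antibody comes from the Cpeb4 pair, and calls fell for all tested genes, to 25.3% higher and 5.51% lower without the IgG library of experiment 2 and to 26.5% and 5.98% without that of experiment 1. Without the IgG library of experiment 2 the limma adjusted p was 0.0532 for Nars, 0.0557 for Rars, 0.084 for Farsb, 0.165 for Iars, 0.171 for Cars, 0.236 for Yars and 0.26 for Gars, against 0.00444 for Dars. Without that of experiment 1, Yars (0.16), Gars (0.173), Iars (0.131) and Cars (0.231) passed no longer, whereas Nars (0.0194), Farsb (0.0346), Rars (0.0464) and Dars (0.00261) passed.

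**Figure D2:**
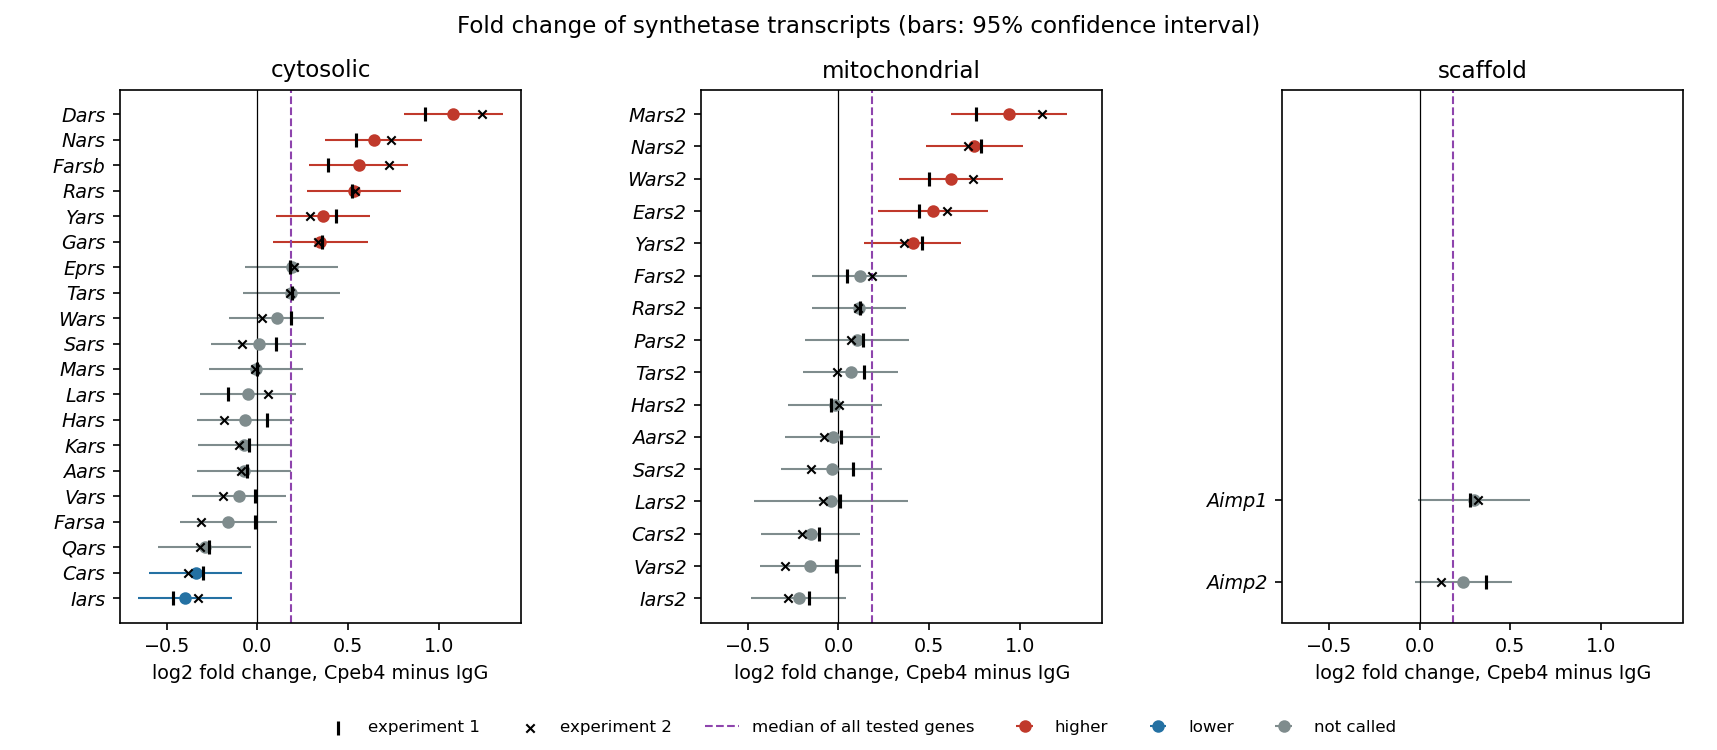
Log2 fold change of 38 of the 39 transcripts, Cpeb4 minus IgG, on the log2(FPKM + 1) scale with its 95% confidence interval; black bars and crosses give experiments 1 and 2 and the dashed line the median of all tested genes, 0.19. Dars at 1.08 and Mars2 at 0.94 lie farthest to the right, and Iars at -0.40 and Cars at -0.34 farthest to the left.

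Mars2, the mitochondrial methionyl enzyme, changed most in its set. It had 3.63 and 5.26 FPKM in the Cpeb4 libraries and 1.74 and 1.87 FPKM in the IgG libraries. The groups were far apart, although relative to their mean the Cpeb4 libraries differed from each other more than for any other member. It was 1.92-fold higher (log2 fold change 0.94, SE 0.15, limma adjusted p = 7.39e-05). The RefSeq span of Mars2 (chromosome 1, 55237177 to 55240058 in GRCm38) is 2882 bases, whereas the gene model behind the deposited FPKM had 11294 bases, so its FPKM is per a longer model, and whether reads from outside the RefSeq span were counted was not tested.

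Nars2 and Wars2 followed. Nars2 had 9.63 and 9.25 FPKM against 5.16 and 5.26 FPKM, and the antibodies were clearly apart (log2 fold change 0.75, SE 0.13, 1.68-fold, adjusted p = 0.000127). Wars2 had 6.23 and 6.66 FPKM against 4.11 and 3.59 FPKM (log2 fold change 0.62, SE 0.13, 1.54-fold, adjusted p = 0.00112). These enzymes charge the asparagine and tryptophan tRNAs of mitochondria. Nars2 was called higher in 4 of the 5 scalings and Wars2 in 3, with log2 fold changes down to 0.30 and 0.19.

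The glutamyl and tyrosyl enzymes of mitochondria were also higher. Ears2 had 3.94 and 3.92 FPKM with anti-Cpeb4 and 2.64 and 2.24 FPKM with IgG (log2 fold change 0.52, SE 0.14, adjusted p = 0.00611). Yars2 had 9.00 and 8.14 FPKM against 6.28 and 6.11 FPKM (log2 fold change 0.41, SE 0.13, adjusted p = 0.0129). Neither pair of groups overlapped here. Under each of the 4 other scalings neither Ears2 nor Yars2 was called, with log2 fold changes down to 0.13 and -0.04.

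The remaining 11 mitochondrial enzymes lay between -0.22 for Iars2 and 0.12 for Fars2 on the log2 scale, and none was called. Iars2 had 10.3 and 9.72 FPKM against 11.59 and 11.99 FPKM, with both Cpeb4 libraries below (adjusted p = 0.156). Hars2, Aars2 and Sars2 had fold changes of -0.02, -0.03 and -0.04, and their groups overlapped. Rars2, Pars2 and Tars2 were at 0.11, 0.10 and 0.07, and Cars2 and Vars2 both at -0.15. Without the IgG library of experiment 2, the adjusted p was 0.102 for Ears2 and 0.138 for Yars2, and Mars2 (0.00874), Nars2 (0.0111) and Wars2 (0.0477) were the 3 calls that remained in this set; without that of experiment 1, Yars2 (0.108) was lost.

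Neither scaffold gene was called. Aimp1 had 3.12 and 3.11 FPKM against 2.40 and 2.28 FPKM (log2 fold change 0.30, 95% confidence interval -0.01 to 0.61, adjusted p = 0.0975). Aimp2 had 14.7 and 11.3 FPKM against 11.2 and 10.3 FPKM (log2 fold change 0.24, adjusted p = 0.124). In each the Cpeb4 libraries lay above the IgG libraries, for Aimp2 by little in experiment 2. Aimp1 was called higher by limma-voom on the recovered reads (adjusted p = 0.0313) and with a filter of 50 reads (0.0456), and Aimp2 without the Cpeb4 library of experiment 2 (0.00442). Eef1e1, which encodes the other scaffold and is not named as a synthetase, had 16.3 and 17.5 FPKM against 5.05 and 5.44 FPKM. It was higher by 1.52 on the log2 scale (SE 0.12, limma adjusted p = 1.13e-07), more than any synthetase.

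The genes of the multisynthetase complex gave calls in both directions. Of its 8 synthetase genes, Dars and Rars were higher, Iars was lower, and Eprs, Lars, Qars, Mars and Kars were not called, with a median log2 fold change of -0.03. Of the 12 cytosolic genes outside it, 4 were higher and 1 lower, with a median of 0.06. By structural class, the class I enzymes gave 6 of 19 higher and 2 lower (median -0.01) and the class II enzymes 6 of 18 higher and 0 lower (median 0.08). Eprs, a fusion of a class I and a class II enzyme, was counted in class I. Within the cytosolic set, 2 of 10 class I genes (Rars and Yars) and 4 of 10 class II genes (Dars, Nars, Farsb and Gars) were higher, and both lower genes were of class I. These counts stand beside 38.8% higher and 11.6% lower of all tested genes, and no difference between the groups was tested.

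Enzymes for the same amino acid were then compared across compartments, as the ratio of the cytosolic to the mitochondrial FPKM in each library, which does not depend on how libraries are scaled. On average over the experiments the ratio was lower with anti-Cpeb4 in 11 of 18 pairs, and the log2 change of the ratio had a median of -0.05. The ratios of the antibodies did not overlap in 14 of the 18 pairs, 8 with the mitochondrial and 6 with the cytosolic partner relatively higher with anti-Cpeb4. The share of such ratios among other pairs of genes was not computed, so the count is not a result about synthetases. Eprs and Fars2 each stand in 2 of the pairs, so the pairs are not independent. With 2 libraries against 2, a two-sided exact permutation test over all libraries, without regard to experiment, cannot go below p = 0.333. After adjustment over the 19 pairs compared that floor is 0.422, so these differences could not be called.

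The largest contrast was for methionine. Mars was 9.90 and 6.12 times Mars2 in the Cpeb4 libraries and 20.7 and 17.4 times in the IgG libraries, so the ratio was lower with anti-Cpeb4 in both experiments (log2 changes of the ratio -1.06 and -1.50). Tryptophan and glutamate went the same way. Wars was 4.45 and 3.65 times Wars2 against 5.90 and 6.66 times, and Eprs was 7.22 and 7.35 times Ears2 against 9.49 and 11.1 times.

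For arginine the cytosolic partner gained. Rars was 1.07 and 1.09 times Rars2 against 0.79 times in both IgG libraries, so the order of the 2 transcripts changed between antibodies. Both partners were called higher for asparagine and for tyrosine. Nars was 7.03 and 7.57 times Nars2 with anti-Cpeb4 and 8.95 and 7.90 times with IgG, and Yars was 3.98 and 3.82 times Yars2 against 4.19 and 4.12 times, so these ratios were close.

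The subunits of the cytosolic phenylalanyl enzyme, which work as a heterotetramer, were compared in the same way. Farsb was 1.53 and 2.27 times Farsa in the Cpeb4 libraries and 1.15 and 1.07 times in the IgG libraries. The ratio was higher with anti-Cpeb4 in both experiments, by 0.42 and 1.08 on the log2 scale, the experiments differing in size. Against the single-chain mitochondrial enzyme Fars2, Farsb gained (log2 change of the ratio 0.46) and Farsa was at -0.29.

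**Figure D3:**
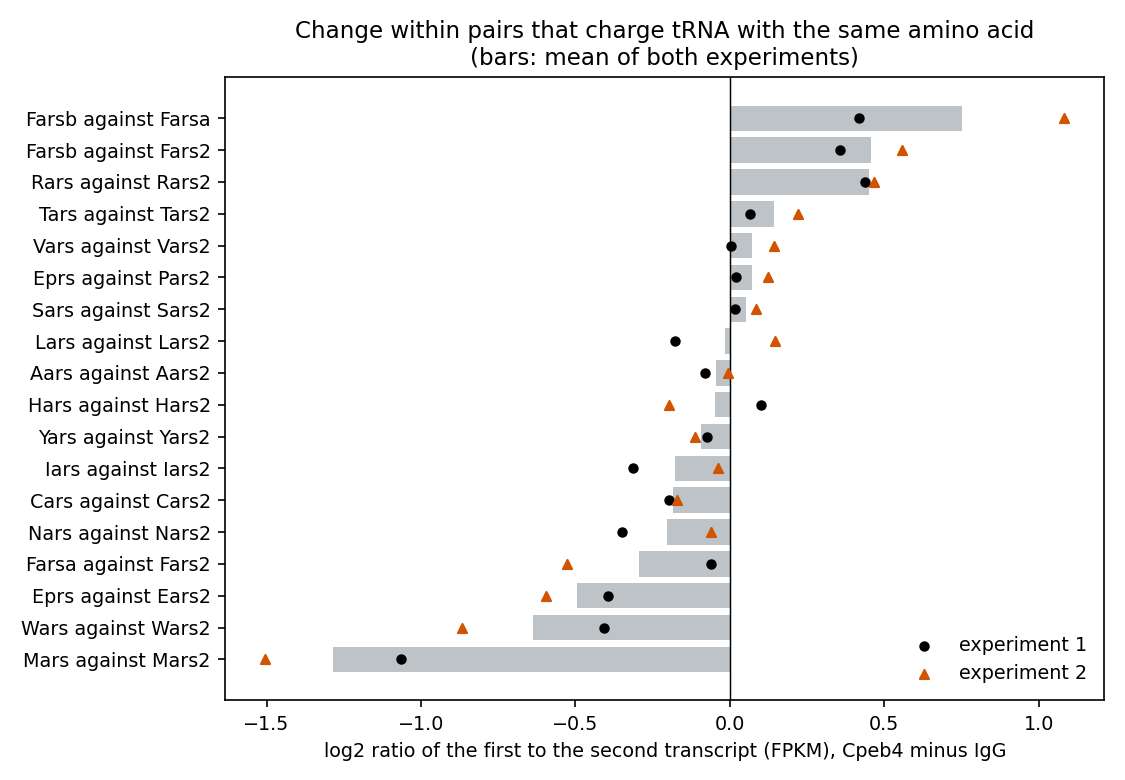
Change of the log2 FPKM ratio, Cpeb4 minus IgG, in 18 of the 19 pairs of transcripts for the same amino acid (first over second named); bars are means of the experiments, circles experiment 1 and triangles experiment 2. Mars against Mars2 lies farthest to the left at -1.28 and Farsb against Farsa farthest to the right at 0.75.

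How many synthetases were called depended on how the libraries were scaled, as it did for all tested genes. With libraries scaled to their read totals the median of all tested genes moved from 0.19 to -0.24, and 1 cytosolic gene (Dars) was higher and 12 lower, beside 17.5% and 42.4% of all tested genes. The mitochondrial set then gave 1 higher (Mars2) and 10 lower. With the upper quartile the cytosolic set gave 1 higher and 12 lower and the mitochondrial set 2 and 9 (19.6% and 37.0% of all tested genes), and with each library centred on its median 2 and 11, and 3 and 6 (23.6% and 29.9%). With a trimmed mean of M-values, where higher and lower calls each took 25.6% of all tested genes, the cytosolic set gave 2 higher and 9 lower and the mitochondrial set 3 and 3.

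Against the median of all tested genes the sets kept their places across the 5 scalings. In each of the 5 scalings the cytosolic median lay 0.19 to 0.26 under the median of all tested genes and the mitochondrial median 0.08 to 0.13 under it, as values with no test. That order held for genes past the filter: with no filter on low values the median of all tested genes was -0.06, and both sets lay above it. In the authors' deposited comparison the median of the genes given an adjusted p was 0.04. The mitochondrial median there, 0.11, lay above it and the cytosolic median, -0.01, under it. Dars and Mars2 were higher in all 5 (17.5% of all tested genes were), with fold changes from 0.58 to 1.08 for Dars and from 0.56 to 0.94 for Mars2 on the log2 scale. Iars and Cars were lower in all 5 (11.6% of all tested genes), at -0.89 to -0.40 and -0.82 to -0.34. So was each of the 1822 tested genes called lower with the authors' scaling. The 4 other scalings all moved fold changes down, so they put no lower call at risk. Of the 25 genes not called with the authors' scaling, 20 were called lower in at least 1 of the other 4, as were 62.0% of all tested genes not called.

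**Figure D4:**
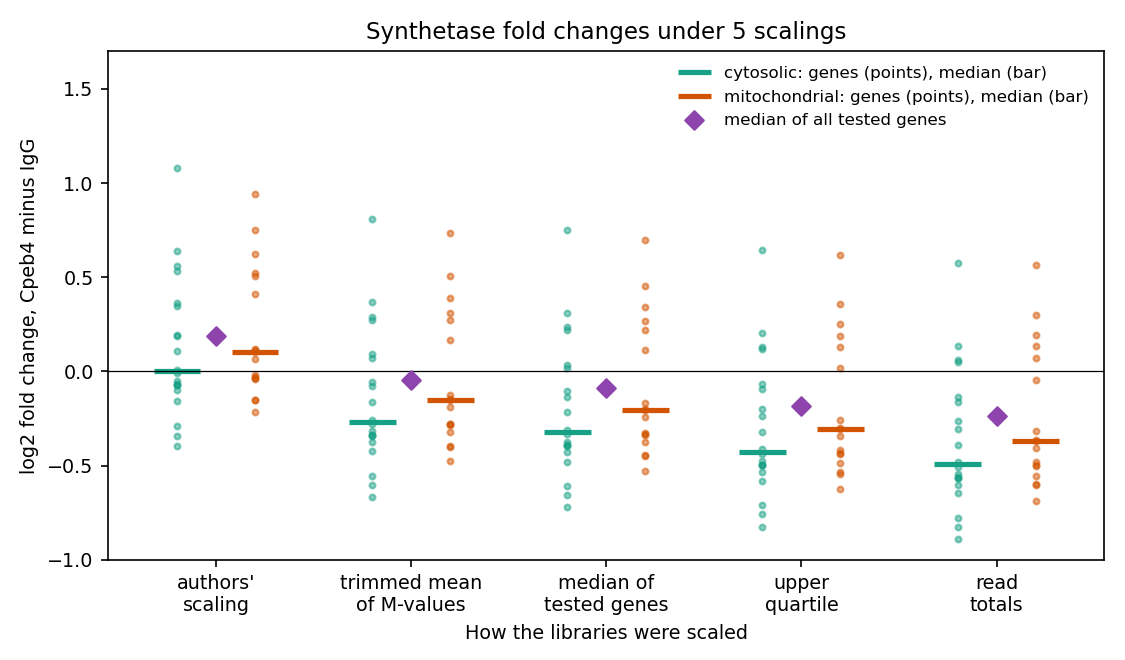
Log2 fold changes of the cytosolic (green) and mitochondrial (orange) synthetase genes under 5 scalings of the libraries, with the median of each set (bars) and of all tested genes (diamonds). The bars move with the diamonds, from 0.00 and 0.10 beside 0.19 with the authors' scaling to -0.49 and -0.37 beside -0.24 with read totals.

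In the authors' deposited table, 9 members passed as higher and 1 as lower by an adjusted p under 0.05, where 21.7% and 4.93% of the genes given an adjusted p did so. All 10 were among the 14 limma calls; Yars, Gars, Cars and Yars2 were not called there. The authors' deposited table gave log2 fold changes of 1.10 for Dars, 1.27 for Mars2 and -0.42 for Iars.

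Gene length and level were set beside the changes as a description, over genes that share the same 4 libraries. Among all tested genes the log2 fold change rose with log2 length (r = 0.33, rho = 0.30, 15633 genes). The 39 members did not follow it (r = 0.01, rho = -0.15). In the 20 cytosolic genes the sign was opposite (r = -0.49, rho = -0.52), with Dars at 2175 bases and Iars at 4426 bases, and in the 17 mitochondrial genes the rank relation was weak (r = 0.48, rho = 0.18). Mean level gave r = 0.41 in the cytosolic, -0.35 in the mitochondrial and 0.32 in all tested genes. The spans of 13 members shared bases with another coding or long noncoding gene, 10 of them with a protein-coding one. The library kit does not mark strand, so reads of such neighbours cannot be told apart within the shared bases.

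Other genes of tRNA charging and use were called mostly in the higher direction, as were the tested genes at large (38.8%). Of 16 accessory genes of charging, 8 were higher and 0 lower, 5 of them in all 5 scalings (median log2 fold change 0.31). Besides Eef1e1, they held Tarsl2, a threonyl synthetase close to Tars, with 16.8 and 19.8 FPKM against 9.23 and 8.35 FPKM (log2 fold change 0.98, adjusted p = 1.19e-05), where Tars itself was not called. Sepsecs, which makes selenocysteine on its tRNA, had 10.1 and 12.5 FPKM against 5.44 and 6.31 FPKM (log2 fold change 0.83, adjusted p = 4.33e-05). Of 8 genes of elongation factors and their exchange factors, 5 were higher and 0 lower, 1 of them in all 5 scalings (median 0.41). They included Eef1a1, the elongation factor that carries charged tRNA, with 540.0 and 539.9 FPKM against 290.0 and 307.2 FPKM (log2 fold change 0.85, adjusted p = 0.000243). Eef1b2, its exchange factor, was higher by 0.72 (adjusted p = 0.000139), and Tsfm, a mitochondrial exchange factor, by 1.03 (adjusted p = 3.77e-06). With read totals Eef1a1 (adjusted p = 0.062) and Eef1b2 (0.191) were no longer called.

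Of 39 tested genes of tRNA maturation and export, 14 were higher and 0 lower, 4 of them in all 5 scalings (median 0.18), beside 38.8% of all tested genes higher and 17.5% higher in all 5. Rpp30, a subunit of the RNase P that trims the 5′ end of tRNAs, had 37.5 and 44.4 FPKM against 11.0 and 12.3 FPKM (log2 fold change 1.73, limma adjusted p = 5.51e-08). Rpp14, of the same enzyme, was higher by 1.58 (adjusted p = 1.00e-07) and Trnt1, which adds CCA to the 3′ end, by 1.39 (adjusted p = 5.64e-07). Each of these changes was larger than that of any synthetase, and the differences were not tested. These genes were named for the smallest adjusted p of the list, so large changes came with the choice.

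The amino acid response senses uncharged tRNA through the kinase Gcn2 and acts through Atf4. Of 28 tested genes of that list, which holds regulators, targets and sensors, 14 were higher and 2 lower, 3 and 2 of them in all 5 scalings (median 0.29), beside 38.8% and 11.6% of all tested genes, and 17.5% and 11.6% in all 5. Cebpg, a dimer partner of Atf4, was higher by 1.41 (adjusted p = 2.12e-07), Impact, an inhibitor of Gcn2 activation, by 1.09 (adjusted p = 4.09e-06) and the amino acid transporter Slc38a2 by 0.80 (adjusted p = 7.52e-05, but 0.064 with read totals). Pycr1, of proline synthesis, had 2.30 and 1.38 FPKM against 3.61 and 3.45 FPKM and was lower (log2 fold change -0.69, adjusted p = 0.00151). Gcn1l1, the activator of Gcn2, had 11.8 and 9.88 FPKM against 14.0 and 17.1 FPKM and was also lower (log2 fold change -0.48, adjusted p = 0.00848). The limma adjusted p was 0.0515 for Pycr1 without the IgG library of experiment 1 and 0.211 for Gcn1l1 without that of experiment 2. Atf4 itself had 22.5 and 20.9 FPKM against 16.8 and 19.4 FPKM and was not called.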

How the data were processed

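Immunoprecipitates of anti-Cpeb4 and of control IgG gave 2 libraries each. RNA came from a MAGNA RIP kit, cDNA from SMART-Seq v4 and libraries from Nextera XT, per the labels' protocols. Of the tools, STAR 2.6.0c, HTSeq 0.6.1p2 and DESeq2 1.26.0 are listed by the submitters' processing notes, without a role, beside the build mm10. Reads carry no molecular identifiers, so counting errors understate the error. Per the file headers, the authors deposited FPKM per library and, for their own comparison, a mean level (a signal, the mean of scaled reads), a log2 fold change with its error, a test score, and raw and adjusted p-values.

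From these, whole reads and gene lengths were recovered from the FPKM steps (100.0% of values within 0.01 of a whole read) for depth, scalings and limma-voom. The 15745 genes that reached an FPKM of 1 in 2 or more libraries were fitted with limma 3.58.1 (R 4.3.3, trended prior) on log2(FPKM + 1), with antibody and experiment as terms and two-sided p-values with Benjamini-Hochberg adjustment. The fit left 1 residual degree of freedom per gene, with 14.6 more from the prior across genes. Experiment was kept as a block because the titles number the experiments and the deposited comparison is named as a batch comparison; deviations of same-numbered libraries had a correlation of 0.002 across genes. Fits were tested on simulated data. Calls, medians and pair ratios are described beside all tested genes. The members, gene lists, motifs and tests were chosen with earlier results of these data known. The text names the members, apart from 1 that is not reported here, Cpeb4 and, from each pathway list, up to 3 called genes per direction with the smallest adjusted p; Atf4 and Sgpp2 were added after their values were seen. Of genes with 2 IDs for 1 symbol in a list, the more abundant was used. Alternatives were 4 other scalings, a pseudocount of 0.1, 3 other filters, limma-voom, the authors' deposited comparison, no experiment block and leaving out each library.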

Additional observations from a re-analysis of the deposited data

How the results depend on the processing

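Scaling moved the counts most. With read totals, upper quartile, trimmed mean of M-values and centring of each library on its median, in that order, 1, 1, 2 and 2 cytosolic genes were higher and 12, 12, 9 and 11 lower (medians -0.49, -0.43, -0.27 and -0.32), and 1, 2, 3 and 3 mitochondrial genes were higher and 10, 9, 3 and 6 lower (medians -0.37, -0.31, -0.15 and -0.20). The medians of all tested genes were -0.24, -0.18, -0.04 and -0.09. The difference between the set medians, cytosolic minus mitochondrial, was -0.10 with the authors' scaling and -0.12 with read totals and with upper quartile. Of the 22 members with a fold change above 0, 13 were below 0 under at least 1 other scaling, and none went the other way. Where either value was called, these were, with read totals and upper quartile, Yars (-0.14, -0.070), Gars (-0.16, -0.091), Wars (-0.39, -0.32), Sars (-0.48, -0.41; -0.31 when centred), Rars2 (-0.37, -0.31) and Tars2 (-0.41, -0.34), and with read totals Yars2 (-0.043) and Fars2 (-0.37). With no filter on low values, where 46911 genes were tested, 3 cytosolic genes were higher and 0 lower and 3 mitochondrial genes higher, with 8 calls lost and 8.35% of genes higher and 1.87% lower. The authors' deposited comparison gave 1 cytosolic gene lower. Without the replicate block, 6 cytosolic genes were higher and 3 lower (Qars added) and no call was lost, with 6007 genes higher and 1714 lower of all tested; a pseudocount of 0.1 changed no call. Limma-voom and the 50-read filter lost no call and added Aimp1 (higher) and Qars (lower), and an FPKM of at least 1 in all 4 libraries added Qars. Leaving out 1 library at a time used fits with no block, where the lone library is assumed to vary like the others. The cytosolic median was then -0.041 to 0.084 and the mitochondrial median 0.033 to 0.13, with a difference between the medians of -0.13 to -0.041. Dars and Mars2 were called higher under every alternative run, at adjusted p up to 0.0111 and 0.0233. The cause of these shifts was not tested, apart from the fewer libraries or more genes that an alternative itself brings. With 2 libraries per antibody, the 95% half-widths of the members ran from 0.26 to 0.42 on the log2 scale, so smaller changes could not be called. These widths go with an unadjusted p, and a call took more. Qars, at -0.29 with a half-width of 0.26, was not called. Every member had at least 213 reads per library.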
